A study of Mus musculus with 46 samples.

Results

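The libraries described here are the H3.3 ChIP-Seq libraries of the Thy-1- and Thy-1+ cells (D6T- and D6T+) that were sorted 6 days after the induction of reprogramming, 2 of the 46 samples in the series. They were chosen by the sort and the antibody in their labels. The starting cells were mouse embryonic fibroblasts (MEFs) in which an IRES-EGFP cassette follows the stop codon of Oct4, and both fractions had been infected with pMXs retroviruses for Sox2, Klf4, Oct4 and c-Myc. D0 is the same kind of cell before induction and was taken as the starting reference. Both fractions were grown in the same feeder-free medium with LIF, ascorbic acid, bFGF and CHIR99021, and separated with an antibody against Thy-1 on the cell surface. There was 1 library per fraction, so no difference between the fractions has a replicate check. Intervals are 95% Wilson or Newcombe intervals and cover counting error only.

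H3.3 is a histone variant that is placed in chromatin outside of DNA replication, by the Hira complex mainly at genes and regulatory elements and by Daxx and Atrx mainly at heterochromatin, so that it marks sites where nucleosomes are exchanged. Thy-1 is a surface glycoprotein of fibroblasts. Its loss is an early step on the way to pluripotency, and cells that keep it are regarded as being on the unsuccessful route.

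The D6T- list held 82669 peaks on the assembled chromosomes and the D6T+ list 60618. The D6T- library was deeper, with 29.7 M tags against 21.5 M, and a larger share of its tags lay in peaks, 19.3% against 10.9%. D0 stood near D6T- in both respects, with 27.0 M tags, 19.1% of them in peaks, and 89614 peaks. Peaks covered 127 Mb in D6T-, 69.9 Mb in D6T+ and 130 Mb in D0. Each comparison was repeated with the 60618 peaks of highest normalised tag count in every library, or the whole list where it was shorter. The normalised tag count of a peak is its number of tags per 10 M tags of the library, not divided by length.

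Thy1 itself was bound in the Thy-1+ fractions and not in the Thy-1- fractions. Over Thy1, the summed normalised tag count was 101 at D0, 13.7 at D3, 33.1 in D6T+ and 0 in D6T-, where no peak was assigned to it. At day 9 it was 38.3 in D9T+ and 0 in D9T-. The 3 D6T+ peaks over and just upstream of the gene lay between chr9:43850127 and chr9:43858211 (mm9), in the intergenic, intron and TTS (transcript end) classes. Because each fraction is a population, fewer cells that carry H3.3 at a gene and less H3.3 per cell cannot be told apart.

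Most D6T- peaks were not shared with D6T+, and most of those were not present at D0. A peak was called shared when it overlapped a peak of the other list by at least 1 bp. In D6T-, 52039 of 82669 peaks (62.9%, 62.6 to 63.3) overlapped no D6T+ peak, whereas in D6T+ 23969 of 60618 (39.5%, 39.2 to 39.9) overlapped no D6T- peak. Of the D6T- only peaks, 25.6% overlapped a D0 peak, and of the D6T+ only peaks 56.4% did, a difference of -30.81 percentage points (-31.54 to -30.07). In all, 38711 D6T- peaks were found neither at D0 nor in D6T+, against 10446 such peaks in D6T+. With equal numbers of peaks, 33129 peaks (54.7%) were only in D6T- and 26730 (44.1%) only in D6T+. The share present at D0 was then 20.7% and 50.5%, a difference of -29.74 points. Among peaks at least 4-fold over input, however, the counts were close, 28408 only in D6T- and 27212 only in D6T+, and the difference in the share present at D0 was -14.14 points.

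**Figure D1:**
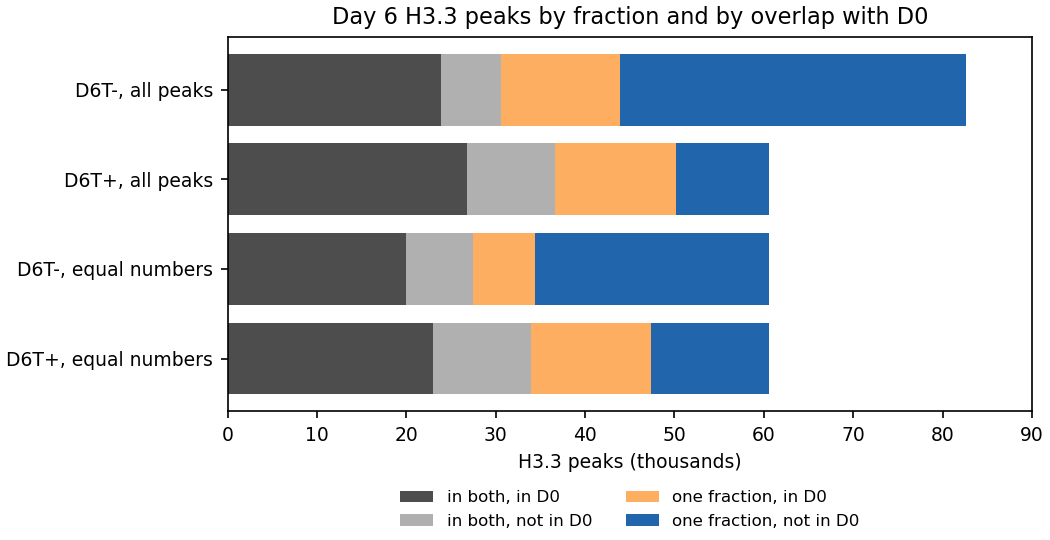
Number of H3.3 peaks (x axis, in units of 1000) in D6T- and D6T+, with all peaks and with equal numbers of top peaks, divided by whether a peak overlaps the other fraction and D0. The blue segment, peaks of one fraction that are absent at D0, holds 38711 peaks in D6T- and 10446 in D6T+ with all peaks, and 26263 and 13240 with equal numbers.

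Peaks found in one fraction only held fewer tags and were shorter than shared peaks, but were similarly enriched over input. Their median normalised tag count was 8.43 in D6T- against 23.8 for shared peaks, and 7.91 in D6T+ against 13.3. Median length was 0.637 kb for D6T- only and 0.500 kb for D6T+ only peaks, the latter being the shortest length the peak caller gives. Shared peaks had medians of 1.686 kb in D6T- and 0.838 kb in D6T+. Median fold over input was 3.90 for D6T- only and 3.93 for shared peaks in D6T-. In D6T+ it was 4.62 and 4.39. A further 16.8% of D6T- only and 30.8% of D6T+ only peaks lay within 1 kb of a peak of the other fraction.

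Seen from D0, the cells of both fractions had lost many of the starting peaks, and those that they kept differed in position. Of 89614 D0 peaks, 24819 (27.7%) were found in both fractions, 14081 (15.7%) in D6T- only, 10263 (11.5%) in D6T+ only and 40451 (45.1%) in neither. Among the D0 peaks found in D6T+ only, 35.6% were intergenic and 4.63% at promoters. Among those found in D6T- only, 21.95% were intergenic and 9.42% at promoters. With equal numbers, the intergenic shares were 35.9% and 21.7%. The D0 peaks found in D6T+ only were also the stronger at D0, with a median normalised tag count of 16.9 against 9.27. Those found in neither had a median of 7.98 and a median length of 0.627 kb. At D0 a single tag was worth 0.371 units and the peak threshold was 17 tags, so many of these lay near it. The share of tags in peaks was 10.9% in D6T+ and 19.3% in D6T-, so weak peaks were harder to detect in D6T+. The part of detection in these counts was not tested.

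The genomic classes of fraction-only peaks were otherwise close. Promoter-TSS peaks (midpoint between 1000 bp before and 100 bp past a start site) made up 5.35% of D6T- only and 4.68% of D6T+ only peaks, a difference of 0.66 points (0.33 to 0.99). Introns held 56.3% and 55.7%, and intergenic DNA 29.2% and 30.6%, a difference of -1.45 points (-2.15 to -0.74). Both differences took the opposite sign among peaks at least 4-fold over input, -0.47 and 0.78 points. The classes separated once D0 was considered. Among D6T- only peaks, 31.4% of those absent at D0 and 22.7% of those present at D0 were intergenic. Among D6T+ only peaks the order was the opposite, 28.5% and 32.3%.

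The new D6T- peaks were found again in later libraries more often than the new D6T+ peaks. Of the D6T- only peaks absent at D0, 35.2% overlapped a peak of D9T- and 20.4% a peak of D9T+. For D6T+ only peaks absent at D0, the shares were 15.0% and 15.1%. In iPSCs they were 21.0% and 15.1%, a difference of 5.94 points (5.13 to 6.73), and in the embryonic stem cell library ESD3 11.8% and 7.20%. In the separate MEF library the order was reversed, 4.90% against 8.66%. With equal numbers the difference was 29.82 points in D9T-, 11.71 in D9T+ and 8.18 in iPSCs. Counted over all fraction-only peaks, with D0 peaks included, the difference in iPSCs was 8.16 points, and 1.11 points among peaks at least 4-fold over input. The highest share of D6T- only new peaks was in D12S-, 42.4%, a library of SSEA-1- cells with 87427 peaks covering 141 Mb. The share of D6T+ only new peaks there was 27.4%. In D16S-, also of SSEA-1- cells, the shares were 20.8% and 14.9%, so the order was not particular to the successful route. When only midpoints were counted the shares in D9T- were 25.4% and 9.82%.

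**Figure D2:**
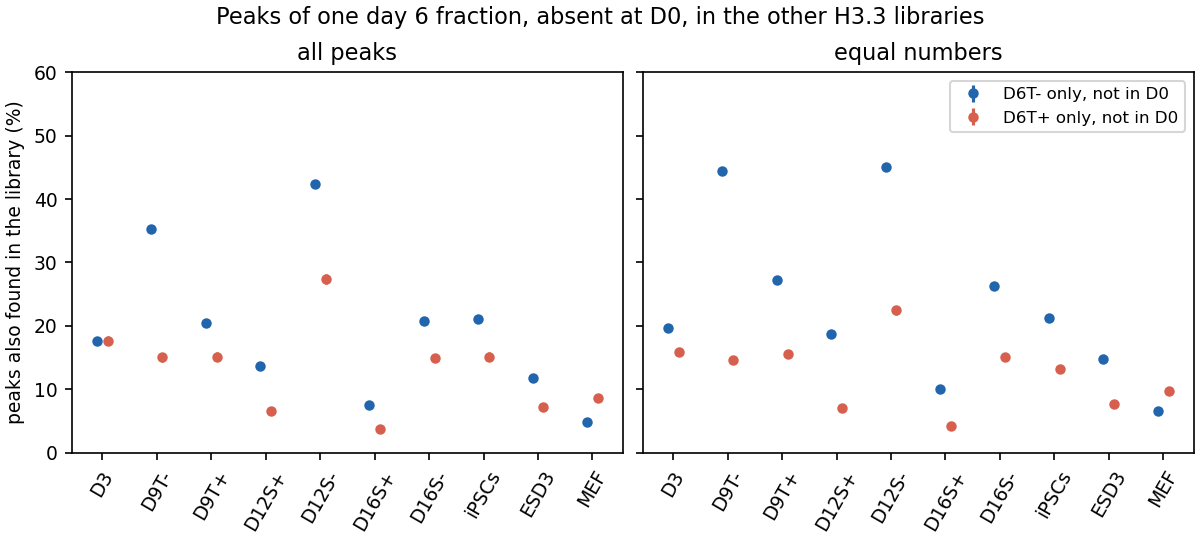
Share of peaks (y axis, %) of one day 6 fraction, absent at D0, that overlap a peak of each other H3.3 library (x axis), with all peaks on the left and equal numbers on the right. Bars are 95% Wilson intervals, mostly smaller than the points. D6T- only peaks (blue) are above D6T+ only peaks (red) in D9T-, D9T+, D12S+, D12S-, D16S+, D16S-, iPSCs and ESD3, and below them in MEF.

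H3K4me3, the mark of active promoters, was mapped in D0 and D6T-. Of D6T- only peaks absent at D0, 19.0% overlapped a D6T- H3K4me3 peak and 8.84% a D0 H3K4me3 peak. Of D6T+ only peaks present at D0, 11.5% overlapped H3K4me3 in D6T- and 26.5% at D0. These classes were chosen by their H3.3 in D0 and D6T-. Their order therefore cannot be read as a difference between the fractions. D6T- only peaks present at D0 overlapped H3K4me3 of D0 in 27.2% and of D6T- in 26.3%. For D6T- peaks shared with D6T+ but absent at D0, the shares were 16.2% and 30.1%. H3K36me3, which marks transcribed gene bodies, coincided with 11.1% of D6T- only new peaks and 9.26% of the D6T+ only peaks present at D0 in D6T-, but the D6T- H3K36me3 library had an estimated fragment length of 444 bp and 7.50% of its tags in peaks, whereas the D0 library had 31.3%. The series holds no H3K4me3 library of D6T+, so this mark could not be compared between the fractions.

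Intergenic fraction-only peaks differed in the sequences at their centres. AP-1 factors (Fos and Jun family members) are abundant in fibroblasts and bind TGANTCA, and the octamer ATGCAAAT is bound by Oct4, with Sox2 at the composite element whose core is searched here as TTGTNATGC. Windows of 500 bp centred on peak midpoints were searched on both strands, beside flanking windows 5 kb away that held no D0, D6T- or D6T+ peak. The motifs overlap in part, since the octamer and the composite core share bases. AP-1 was present in 29.4% of windows (28.1 to 30.8, 4367 windows) of D6T+ only peaks present at D0, and in 18.1% (17.4 to 18.8, 12164 windows) of D6T- only peaks absent at D0, while their flanks held it in 13.8% and 13.7%. The octamer was present in 5.11% of D6T- only new windows and in 3.02% of D6T+ only windows present at D0, against 3.94% and 3.47% of flanks. The composite core was present in 2.37% and 1.53%, against 1.37% and 1.32% of flanks. Differences between these classes, which differ in D0 status as well as in fraction, were -11.32 points (-12.85 to -9.82) for AP-1. They were 2.09 points (1.42 to 2.71) for the octamer and 0.83 points (0.35 to 1.27) for the composite core. Among fraction-only peaks absent at D0, AP-1 was present in 24.7% of D6T+ windows. The D6T- minus D6T+ difference was then -6.6 points (-8.32 to -4.94) for AP-1. It was 2.19 (1.42 to 2.87) for the octamer and 1.06 (0.52 to 1.51) for the composite core. KLF (GGGNGTGG), SOX (ATTGTT), TEAD (GGAATG) and RUNX (TGTGGT) matches were also searched. Their differences among these peaks were 3.69 points (2.28 to 5.03), 2.89 (1.05 to 4.69), -0.21 (-2.02 to 1.55) and -2.69 (-4.61 to -0.79). Against D6T+ only peaks present at D0 they were 2.69, 7.99, -3.18 and -1.36 points. The SOX share of D6T- only new windows, 31.4%, was near that of their flanks, 30.1%. Base composition was similar, with 43.5% G and C in D6T- only new windows and 45.5% in D6T+ only windows present at D0. A match is a description of the sequence and not evidence of binding.

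**Figure D3:**
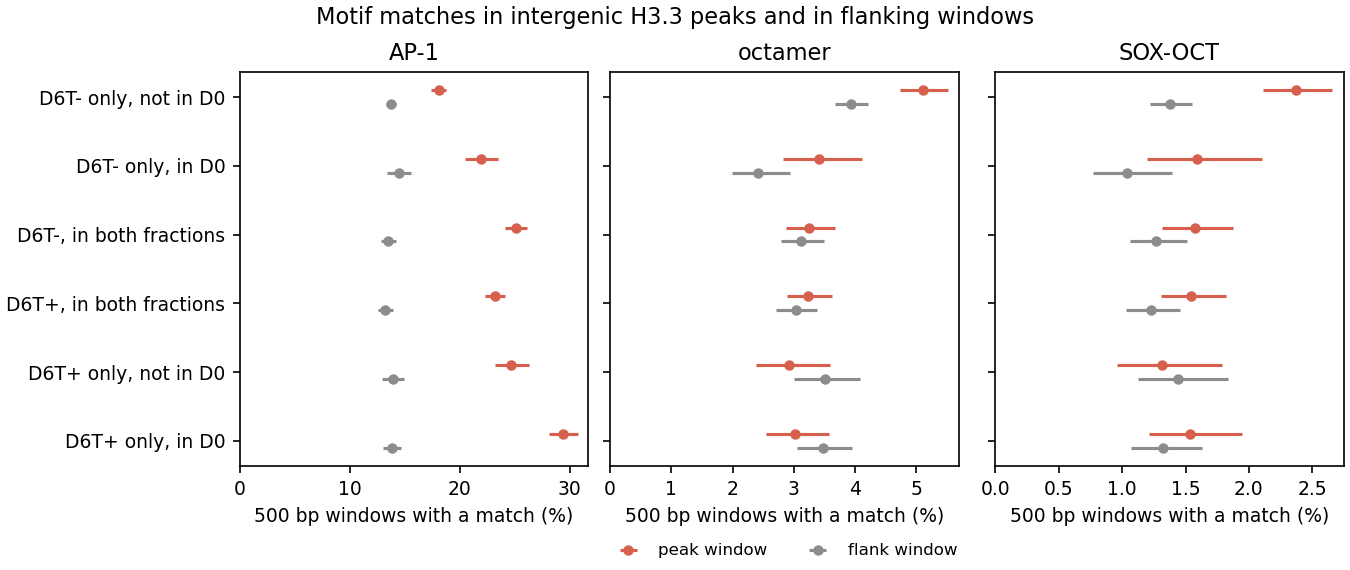
Share of 500 bp windows (x axis, %) with a match to AP-1, the octamer or the composite SOX-OCT core, for intergenic peaks by fraction and D0 status (rows), in peak windows (red) and flanking windows (grey), with 95% Wilson intervals. AP-1 is most frequent in D6T+ only peaks present at D0 (29.4%) and least frequent in D6T- only peaks absent at D0 (18.1%), and the octamer is at 5.11% in the latter.

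The strongest intergenic peaks of these classes are shown by 60 bases on either side of the motif match nearest to the midpoint, with the match in capitals (mm9, plus strand, 5′ to 3′). These sequences show what DNA carried the highest fraction-only signals.
Podxl region, D6T- only, absent at D0, TEAD match: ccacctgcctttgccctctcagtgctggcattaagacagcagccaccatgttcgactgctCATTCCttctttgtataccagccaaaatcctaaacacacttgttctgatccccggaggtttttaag
Peak nearest to Drd1a, D6T- only, present at D0, RUNX match: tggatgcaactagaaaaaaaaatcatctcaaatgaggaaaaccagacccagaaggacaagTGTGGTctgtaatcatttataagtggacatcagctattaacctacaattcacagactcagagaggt
Gm8138 region, D6T+ only, present at D0, AP-1 match: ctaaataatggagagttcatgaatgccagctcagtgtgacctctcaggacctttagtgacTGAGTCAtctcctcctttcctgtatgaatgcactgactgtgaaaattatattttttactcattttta
St3gal1 region, D6T+ only, present at D0, AP-1 match: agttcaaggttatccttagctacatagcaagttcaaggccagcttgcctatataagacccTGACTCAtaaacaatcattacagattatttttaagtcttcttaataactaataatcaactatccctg
The Podxl peak (chr6:31546261-31551709) had a normalised tag count of 141 and a 6.00-fold enrichment over input, 35.0 kb upstream of Podxl, which encodes a sialomucin of the surface of pluripotent cells. It was also a peak in D9T-, D9T+ and iPSCs, and not in MEF. The Drd1a peak (chr13:53918189-53922472) had a normalised tag count of 99.4 and lay 230.7 kb from the start of Drd1a, the nearest gene. The TEAD hexamer GGAATG was present in 27.3% of D6T- only new windows and 24.7% of their flanks, and the RUNX hexamer TGTGGT in 35.4% of both the D6T- only windows present at D0 and their flanks. The Gm8138 peak (chr14:44104999-44108143) had 93.1 but only 2.53-fold over input, and the St3gal1 peak (chr15:66977338-66982670), added here because it holds an AP-1 match and is better enriched, had 88.0 and 4.66-fold. The St3gal1 peak was present in D9T+ and MEF and absent from D9T- and iPSCs. The strongest D6T+ only peak absent at D0 (chr17:53291625-53292125, normalised tag count 109) was 0.500 kb long and held 67.2 input tags, where the median D6T+ peak of that length held 3.2, so its sequence is not shown.

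More genes were bound only in D6T- than only in D6T+. Of 22367 protein-coding genes, 10182 were bound in both fractions, which means that at least 1 genic peak was assigned to them by the nearest start site. Another 2642 (11.8%) were bound only in D6T- and 1032 (4.61%) only in D6T+. With equal numbers the counts were 2013 (9.0%) and 1526 (6.82%), and among peaks at least 4-fold over input 2559 and 2075. Among genes bound only in D6T-, 1120 were not bound at D0 and 1522 were. Among those bound only in D6T+, 237 were not and 795 were. D6T+ only genes were therefore mostly genes of D0 in both settings, with 1047 of 1526 bound at D0 when numbers were equal. D6T- only genes were mostly genes of D0 with all peaks, but with equal numbers only 843 of 2013 were bound there. Of all genes, 58.9% were bound at D0 with all peaks and 51.7% with equal numbers.

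Long peaks over clusters of short genes shift their midpoint from one gene to the next, which makes a neighbour look unbound. A stricter count, chosen after the data had been seen, required that no peak of the other fraction touch the gene or 1 kb at either end. It left 1795 genes (8.03%) for D6T- and 490 (2.19%) for D6T+. Of the 10 highest-scoring D6T- only genes by the original rule (among them Adam23, Pfn1, Idh3b, 0610009L18Rik, Dhx16, Plk1s1, BC031181, Tspan31 and Arpp21), 3 met it, and of the 10 for D6T+ (Srsf3, Hspd1, Ptrh2, Actg1, Nop56, Sprr2a3, Rrnad1, Prdx2, Tubb5 and Rpl17), only Sprr2a3 did. The actin-binding profilin gene Pfn1, for example, scored 347 in D6T- and 0 in D6T+ by the original rule, yet peaks over its span carried 120 and 79.4.

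The D6T- only genes with the highest scores that met the stricter count were Adam23, Plk1s1, Arpp21, 6230409E13Rik, Pipox, Sh3gl2, Alg13, Gm106, L1td1 and Pip5k1b. Adam23, a cell adhesion protein of neurons, scored 349 in D6T- and 0 in D6T+, with 32.6 at D0, 365 in D9T- and 53.4 in D9T+. Plk1s1, which encodes a centrosomal protein, scored 262 in D6T- and nothing at D0 or in D6T+, and 337 in D9T- against 99.5 in D9T+. L1td1, an RNA-binding protein gene of pluripotent cells, scored 173 in D6T-, 17.4 at D0, 0 in D6T+ and 176 in iPSCs. All 10 were bound in D9T-, D9T+ and iPSCs, and 4 were bound at D0. At day 12, Adam23 scored 549 in D12S- and 199 in D12S+, Plk1s1 208 and 18.2, and L1td1 357 and 169.

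The 10 D6T+ only genes with the highest scores that met it included Sprr2a3, Sgpl1, Sprr2a2, Ptgs1, Ankrd55, Crabp1, Hhipl1, Xdh and 5430411K18Rik. All 10 were bound at D0, 8 in D9T+ and 6 in D9T-. Ptgs1, which encodes the prostaglandin synthase COX-1, scored 171 at D0, 81.6 in D6T+ and 0 in D6T-, then 46.3 in D9T+ and 0 in D9T-. Sgpl1, the sphingosine-1-phosphate lyase gene, scored 239 at D0, 124 in D6T+ and 0 in D6T-. The Sprr2a genes are near-identical copies and reads that mapped to more than 1 place were removed, so their values are uncertain.

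Among genes bound in both fractions, the D6T- score was a median 1.77 times the D6T+ score, and log2 ratios of D6T- over D6T+ are centred on that median of 0.82. By this measure 1910 genes (18.8%) were at least 2-fold higher in D6T- and 1837 (18%) at least 2-fold lower. With equal numbers, 1808 of 9688 (18.7%) were higher and 1696 (17.5%) lower. The strongest ratios among highly scored genes were again of 2 kinds. Of the 10 genes furthest below the median (Ipo7, Tnc, Clk1, Col5a1, Col1a2, Twist2, Nid1, Rras2, Il4ra and Gramd2), 7 stayed at least 2-fold lower when tags were counted in proportion to the bases within the gene span, a score also chosen after the data had been seen, the exceptions being Ipo7, Clk1 and Gramd2. Of the 10 furthest above (Adamtsl1, Tmem149, Ccdc141, Rpl22, Vps13a, Ccnb1ip1, Ccdc84, Mpdu1, Eef2 and Osbpl1a), 6 stayed at least 2-fold higher, and Tmem149, Rpl22, Ccdc84 and Eef2 did not.

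Of the 10 genes furthest below the median, 4 encode matrix proteins and 1 a mesenchymal transcription factor. Tnc, which encodes the matrix glycoprotein tenascin C, scored 1975 at D0, 284 in D6T+ and 17.9 in D6T-, a centred log2 ratio of -4.81. Col5a1, a fibrillar collagen gene, scored 2259 at D0, 258 in D6T+ and 25.8 in D6T- (-4.14). Col1a2 scored 707, 250 and 26.0 (-4.09). Twist2, which encodes a mesenchymal transcription factor, scored 859, 333 and 38.4 (-3.94). D6T+ had 14 peaks over Twist2 where D6T- had 1, of 3.17 kb (chr1:93711909-93715077). Nid1, a basement membrane gene, scored 883, 653 and 84.4 (-3.77). D6T+ was below D0 at each of these 5 genes, and D6T- lower still. These scores were not adjusted for the share of tags in peaks, 10.9% in D6T+ against 19.1% at D0. A modest gap between D0 and D6T+, as at Nid1, is therefore uncertain.

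In the other direction, Ccdc141, a gene of a centrosome-associated protein, scored 25.6 at D0, 36.3 in D6T+ and 1495 in D6T-, a centred log2 ratio of 4.54. At day 9 it scored 1507 in D9T- and 509 in D9T+, and it scored 5.59 in iPSCs. Its highest score was at day 12 in SSEA-1- cells, 2021 in D12S- against 302 in D12S+. Vps13a, a lipid transfer protein gene, scored 68.7, 15.6 and 532 (4.27), and Adamtsl1, which encodes a secreted ADAMTS-like protein, 84.7, 6.98 and 354 (4.84). Vps13a scored 1141 in D12S- and 159 in D12S+, and Adamtsl1 328 and 47.1.

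**Figure D4:**
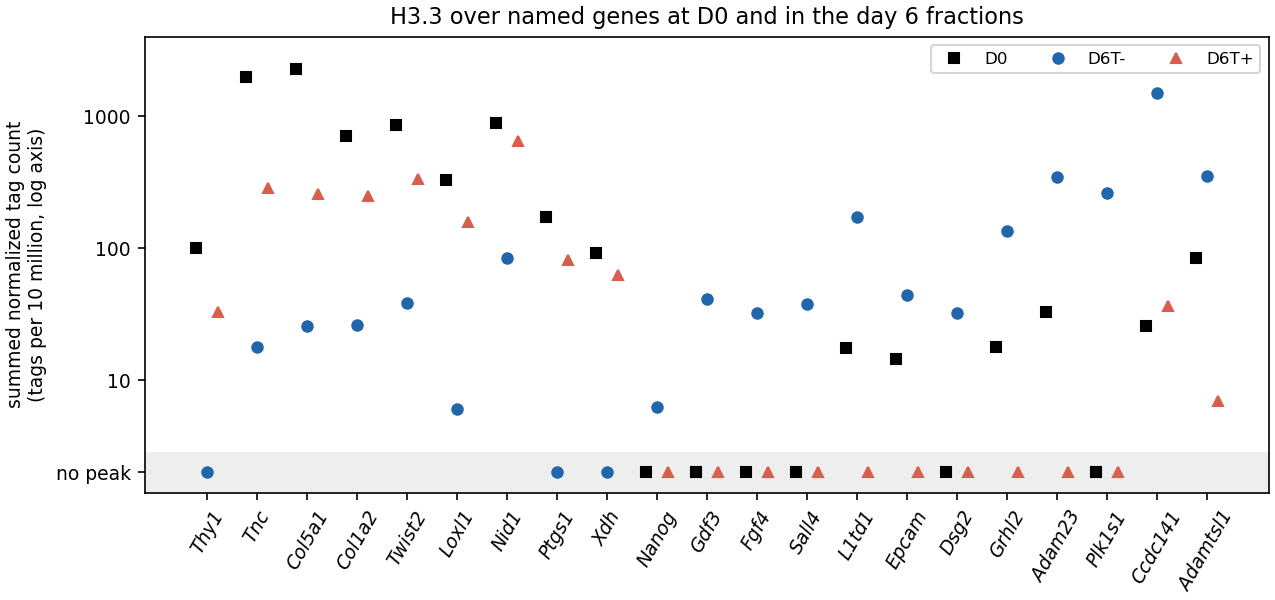
Summed normalised tag count (y axis, log scale, tags per 10 M) of named genes (x axis) in D0 (squares), D6T- (circles) and D6T+ (triangles), 1 library each. Symbols in the grey band mark genes with no assigned peak. Matrix genes such as Tnc (1975, 17.9 and 284) are lowest in D6T-, while Nanog, Gdf3, Fgf4 and Sall4 have peaks in D6T- alone.

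In the fibroblast and mesenchymal list, most genes bound in both fractions scored lower in D6T-. Of its 41 genes, 38 (92.7%) were bound at D0, 34 (82.9%) in each fraction and 16 (39.0%) in iPSCs. All genes gave 58.9% at D0, 57.3% in D6T-, 50.1% in D6T+ and 58.7% in iPSCs. Among peaks at least 4-fold over input, 8 more were bound in D6T+ than in D6T-. Over all genes, 2559 were then bound only in D6T- and 2075 only in D6T+. Of the 30 bound in both fractions, 22 were at least 2-fold lower in D6T- and 2 (Fbn1 and Fbn2) at least 2-fold higher, where all genes gave 18% and 18.8%. Fbn1, a fibrillin gene, was lower in D6T- by tags within the gene span (-0.96), so its direction depends on the assignment. The list's median centred log2 ratio was -1.41. With equal numbers, 20 of 28 were lower, and with tags counted within the gene span 22 of 33. Besides the genes above, Loxl1, which encodes an elastin cross-linking enzyme, scored 6.07 in D6T- and 159 in D6T+, and Col1a1 30.8 and 99.6, against 327 and 582 at D0. Vim, the gene of the intermediate filament protein vimentin, scored 371 in D6T- and 261 in D6T+, a centred log2 ratio of -0.31. By nearest start site, Col6a2, Dcn, Fap and Nid2 were bound only in D6T-, and Thy1, Col6a1, Postn and Pdgfrb only in D6T+. That is 4 of 41 each way, where all genes gave 11.8% only in D6T- and 4.61% only in D6T+. Thy1, Postn and Pdgfrb met the stricter count for D6T+ (2.19% of all genes), and Col6a2 for D6T- (8.03% of all genes). Postn and Pdgfrb each had a single D6T+ peak of 0.500 kb, with normalised tag counts of 7.91 and 7.22. A single tag was worth 0.466 units in D6T+, whose peak threshold was 15 tags, so both peaks lay near it. At day 9, whose libraries are separate, 17 of 29 genes were at least 2-fold lower in D9T- and 0 higher, where all genes gave 13.9% in each direction. The list was chosen with earlier results of these data known, so its count is a description.

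The contractile genes and targets of the serum response factor showed the same order. Of 19 genes bound in both, 12 were at least 2-fold lower in D6T- and 0 higher, with a median of -1.12. Flnc, a filamin gene, scored 10.8 in D6T- and 113 in D6T+, and Cald1, the caldesmon gene, 294 and 757. Among 11 EMT transcription factors bound in both, 4 (Twist1, Twist2, Zeb1 and Foxc2) were lower and 0 higher. All genes gave 18% lower and 18.8% higher, and the smaller lists here are to be read against these shares. Of the 23 EMT factors, 14 were bound in D6T- and 12 in D6T+, where all genes gave 57.3% and 50.1%. Foxd1, Meox2 and Msx2 were only in D6T- by the stricter count and Foxf1a only in D6T+ by nearest start site. Of 18 Hippo pathway genes and targets, 6 were lower, among them the effector Wwtr1 and the target Ctgf, and 1 higher. Of 18 TGF-beta ligands, receptors and Smads, 6 were lower and 2 higher. Among 8 AP-1 genes, 3 were lower (Fosl2, Jun and Mafg) and 1 higher (Fosb).

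**Figure D5:**
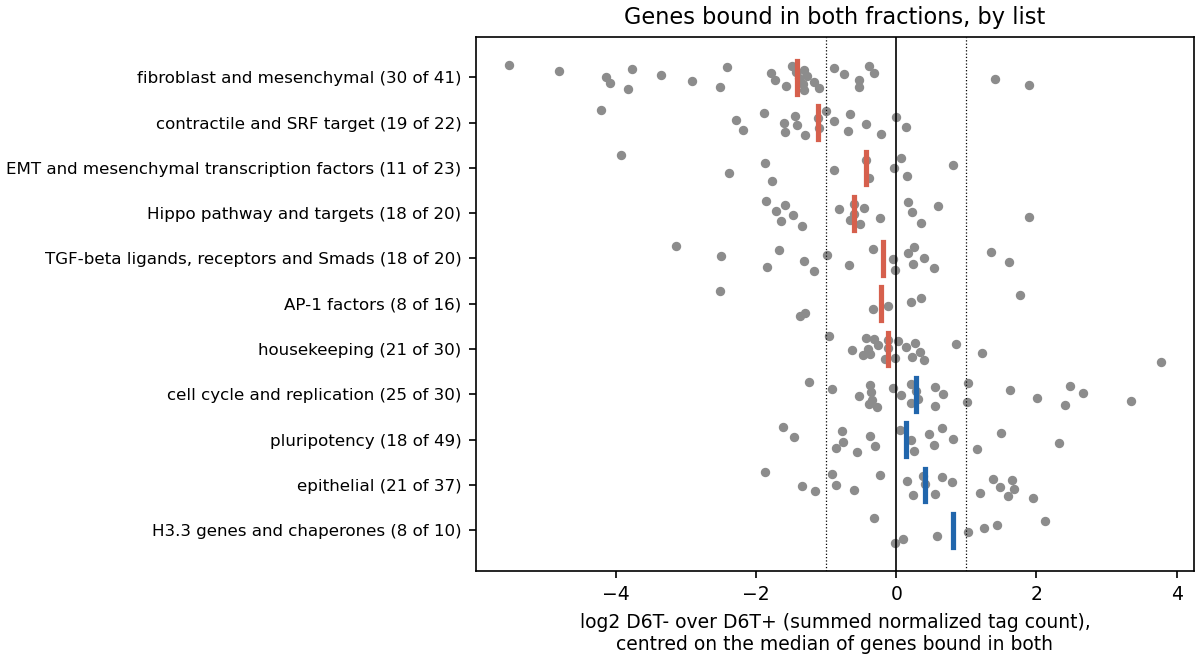
Centred log2 ratio of the D6T- over the D6T+ score (x axis) for each gene bound in both fractions (grey points), by list (rows, with the number bound in both of the number matched). Coloured bars are list medians and dotted lines mark 2-fold. The fibroblast and contractile lists have medians of -1.41 and -1.12, and the H3.3 genes and chaperones 0.80.

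More pluripotency genes were bound in D6T- than in D6T+, most of them weakly. Of 49 genes, 21 (42.9%) were bound at D0, 30 (61.2%) in D6T-, 18 (36.7%) in D6T+ and 45 (91.8%) in iPSCs. All genes gave 58.9%, 57.3%, 50.1% and 58.7% in the same order. The D6T- share was thus near that of all genes, and the D6T+ share was below it. The 12 bound only in D6T- were Nanog, Tdgf1, Gdf3, L1td1, Sall1, Sall4, Eras, Gtsf1, Mycn, Lefty2, Fgf4 and Alpl, and no gene was bound only in D6T+. All but Lefty2 met the stricter count. That is 12 of 49 where all genes gave 11.8%. With equal numbers, 25 were bound in D6T- and 18 in D6T+. Then 9 were bound only in D6T- and 2 only in D6T+, where all genes gave 9.0% and 6.82%. Among peaks at least 4-fold over input, only 4 more were bound in D6T- than in D6T+. Over all genes, 2559 were then bound only in D6T- and 2075 only in D6T+. The D6T- peaks that gave Gdf3 and Tdgf1 their scores were 3.46-fold and 2.55-fold over input, below that cut. The Nanog peak, at 5.05-fold, was above it. Gdf3, a TGF-beta family ligand, scored 41.5 in D6T- and 0 at D0 and in D6T+. Fgf4, a growth factor gene of the inner cell mass, scored 32.4, 0 and 0, and Sall4, which encodes a zinc finger transcription factor, 37.5, 0 and 0. Their iPSC scores were 32.4, 85.9 and 169. Zfp42, Dppa2, Dppa4 and Lin28a, all genes of established pluripotent cells, had no peak in either fraction and scored between 76.5 and 123 in iPSCs. Of the 18 genes bound in both, 3 (Lefty1, Terf1 and Mybl2) were at least 2-fold higher in D6T- and 2 (Dppa5a and Il6st) lower. Lefty1, a Nodal antagonist gene, scored 61.4 in D6T- and 6.98 in D6T+.

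Nanog, a homeobox gene of the core network, carried 1 D6T- peak at its promoter (chr6:122657091-122657591), with a normalised tag count of 6.24 and 5.05-fold over input. A single tag was worth 0.337 units in D6T-, whose peak threshold was 18 tags, so the peak lay near that threshold. Nanog scored 0 at D0, D3 and D6T+, 8.65 in D9T-, 0 in D9T+ and 218 in iPSCs. The 250 bases upstream of the annotated start (chr6:122657257-122657506, mm9, plus strand, 5′ to 3′) are shown because they hold the composite element of Oct4 and Sox2, whose core is in capitals and begins 72 bases before the start. Among 22362 genes with a complete sequence, 131 (0.586%) held this core in the 250 bases before the start.
Nanog: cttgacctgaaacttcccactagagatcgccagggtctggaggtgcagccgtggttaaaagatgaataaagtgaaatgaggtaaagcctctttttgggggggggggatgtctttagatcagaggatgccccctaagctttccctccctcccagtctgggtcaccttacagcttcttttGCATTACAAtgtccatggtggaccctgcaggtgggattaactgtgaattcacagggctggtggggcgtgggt

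More epithelial genes were bound in D6T- than in D6T+. Of 37, 22 were bound at D0, 28 in D6T- and 23 in D6T+, where all genes gave 57.3% in D6T- and 50.1% in D6T+. Epcam, Cldn3, Dsg2, Ovol1, Grhl2, Spint1 and Spint2 were bound only in D6T-, and Cldn6 and Krt18 only in D6T+, where all genes gave 11.8% and 4.61%. Grhl2, which encodes an epithelial transcription factor, scored 135 in D6T-, 17.8 at D0 and 0 in D6T+. Epcam, an epithelial adhesion molecule gene, scored 44.5, 14.5 and 0. Of 21 bound in both, 7 were at least 2-fold higher in D6T-, among them the splicing regulator Esrp2 at 389 against 78.6, and 3 were lower, where all genes gave 18.8% and 18%. At day 9, 8 of 23 were higher in D9T- and 0 lower. Cdh1, the E-cadherin gene, scored 49.1 in D6T- and 23.5 in D6T+, a centred log2 ratio of 0.24.

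Some H3.3 chaperone genes had higher scores in D6T-. Of 8 H3.3 genes and chaperones bound in both, 4 (Hira, Ubn2, Asf1a and Daxx) were at least 2-fold higher and 0 lower, with a median of 0.80, and Atrx was bound only in D6T-. Hira scored 285 in D6T- and 67.7 in D6T+. By tags within the gene span, however, Daxx had a ratio of 0.01 and the list's median was 0.16, and at day 9 0 of 9 were higher and 1 lower. The H3.3 genes themselves, H3f3a and H3f3b, had centred log2 ratios of -0.02 and 0.59. Of 25 cell cycle genes, 8 were higher and 1 lower in D6T-, among them the replication helicase gene Mcm6 at 307 against 43.3. At day 9, 3 of 26 were higher and 4 lower.

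Housekeeping genes had a median of -0.12 over 21 genes bound in both, 2 higher and 0 lower. Of the 30, 27 were bound in D6T- and 23 in D6T+, with 6 only in D6T- and 2 only in D6T+. By the stricter count 2 (Hprt and B2m) were only in D6T- and 0 only in D6T+, against 11 of 49 pluripotency and 7 of 37 epithelial genes only in D6T-. All genes gave 8.03% for D6T- and 2.19% for D6T+ by that count. Of 16 neural genes, 3 were only in D6T- by it and 0 only in D6T+, a share near that of the epithelial list. Markers of other cell types were bound about as often as, or less often than, genes in general. Of 20 hematopoietic genes 10 were bound in each fraction, with summed scores of 824 in D6T- and 967 in D6T+. Of 15 endothelial genes 7 were bound in D6T- and 6 in D6T+ (617 and 228), and of 16 neural genes 10 and 7 (970 and 347). Of 17 epidermal genes 6 and 6 were bound (359 and 118), of 17 muscle, fat and cartilage genes 7 and 5 (228 and 378), and of 17 extraembryonic and endoderm genes 8 and 6 (1171 and 1428). Their part in the differences above was not tested. All genes gave 57.3% and 50.1%. Of 23 senescence and p53 genes, 21 and 20 were bound, with 1 higher and 2 lower of 19. Of the 13 sort and surface markers, 9 were bound in D6T- and 10 in D6T+. Of the delivered factors, Klf4, Sox2 and Myc were bound in each fraction. Klf4 scored 72.3 in D6T- and 65.1 in D6T+, Sox2 25.8 and 12.6, and Myc 60.2 and 92.4.

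Genes bound only in D6T- and not at D0 were bound again at day 9 more often than their D6T+ counterparts. Of the 1120, 660 (58.9%) were bound in D9T- and 453 (40.4%) in D9T+, where all genes gave 54.7% and 52.0%. Of the 237 D6T+ genes, 83 (35.0%) and 77 (32.5%) were. In iPSCs the shares were 55.4% (52.4 to 58.2) and 51.5% (45.1 to 57.8), and 58.7% of all genes were bound there. Side by side, day 9 had the same order as day 6: 50.8% of D9T- peaks were absent from D9T+ and 26.3% of those were present at D0, while 43.4% of D9T+ peaks were absent from D9T- and 47.5% of those were present at D0.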

How the data were processed

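H3.3 ChIP-Seq was analysed in the sorted Thy-1- and Thy-1+ fractions of day 6, with 11 other H3.3 libraries and 6 H3K4me3 or H3K36me3 libraries for reference. Per the submitters' processing notes, reads were mapped to mm9 with STAR and peaks called with HOMER, whose versions are not given in the sources used here. Per the file headers, the authors called histone-style peaks in each library separately against an input, without pooling, at a fold of at least 2 for H3.3 and 4 for the other marks. The deposited normalized tag count is a signal, scaled to 10 M tags, with the input not subtracted. The deposited fold over input is a ratio of tags to scaled input tags. The deposited region size and input tags were read as given.

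Peaks outside of chromosomes 1 to 19, X and Y were left out (95 in D6T- and 87 in D6T+). Midpoints were placed on GENCODE protein-coding genes of the same build in 5 classes, tried in the order promoter-TSS, TTS (within 100 bp before or 1000 bp past the end of a transcript), exon and intron, the remainder being intergenic. Genic peaks went to the gene of the nearest start site. Scores are summed normalized tag counts. With 1 library per fraction no test was made. Named genes were the 10 with the highest score among genes of one fraction only under both assignment rules and both peak numbers, the 10 with the largest ratio each way among genes whose mean score was at least 131, and members of 20 lists, of which 429 of 431 genes matched by symbol or synonym. The members and lists were chosen with earlier results of these data known. Scripts ran in Python 3.11.15 with pandas 2.3.3 and SciPy 1.17.1, and were tested on simulated data. Some genes that the rule names are not reported here. The authors' p-values were not used.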

Additional observations from a re-analysis of the deposited data

Results flagged for a closer look

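Of the 10 genes named for a higher and the 10 for a lower ratio in D6T-, 7 and 9 were bound in both fractions of day 9, and 2 of those had a ratio of the opposite sign there, one of them close to 0. The difference was not tested because each fraction had 1 library. Gramd2 had a centred log2 ratio of -3.22 at day 6 and 2.08 at day 9. Rpl22, a ribosomal protein gene, had 4.29 at day 6 and -0.08 at day 9. With tags counted in proportion to the bases within the gene span, the day 6 ratios were -0.35 for Gramd2 and -0.12 for Rpl22.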

How the results depend on the processing

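No paired analysis was possible because each fraction had 1 library, and for the same reason no replicate could be left out. Values are given against those of the report: 52039 D6T- only and 23969 D6T+ only peaks, 2642 and 1032 genes, 0.66 points for promoters, -1.45 for intergenic DNA, -30.81 for D0, 8.16 for iPSCs, and list differences of 0 and 12 genes. Equal numbers of top peaks gave 33129 D6T- only peaks, -0.23 intergenic points, -29.74 points for D0, 9.88 for iPSCs, and 2 fibroblast and 7 pluripotency genes. Ranking the same numbers by tags per kb gave 1582 D6T+ only genes, an intergenic difference that reversed to 1.03, -28.46 for D0, 6.39 for iPSCs, and 3 and 9 genes. Requiring 0.5 of a peak to be covered gave -28.36 for D0 and 5.37 for iPSCs. Counting peaks within 1 kb as shared gave 1.21 promoter points, -4.02 intergenic points, -38.3 for D0 and 12.3 for iPSCs. At least 4-fold over input, 28408 peaks were only in D6T- and 2075 genes only in D6T+, promoters reversed to -0.47 and intergenic DNA to 0.78, D0 gave -14.14, iPSCs 1.11, and the lists 8 and 4 genes. The gene that holds the midpoint gave 4 and 13 list genes, and autosomes alone 11 pluripotency genes. Chosen after the data had been seen, midpoint overlap gave -26.97 for D0 and 5.52 for iPSCs, and any peak over the gene span gave 675 D6T+ only genes and 3 and 13 list genes. The D0 and iPSC differences kept their sign in all 7 alternatives each, and the D6T- only gene count stayed between 2013 and 2578. The causes of these shifts were not tested. Depth and the share of tags in peaks were lower in D6T+, so peaks of D6T- near the threshold could not be detected there to the same extent.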

Other observations

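Chromosome X held more H3.3 peaks in the Thy-1- than in the Thy-1+ fraction at day 6 and day 9. D6T- had 1041 peaks on X (1.26% of its peaks) and D6T+ 337 (0.556%), D0 589 (0.657%) and D3 364 (0.488%). At day 9, D9T- had 815 (1.19%) and D9T+ 446 (0.696%). With equal numbers the day 6 shares were 0.988% and 0.556%. The MEF library had 0.737% and iPSCs 0.961%. Similar shares were found elsewhere. Of the SSEA-1 sorted libraries, D12S- had 1.11% and D12S+ 0.632%, while D16S- had 0.642% and D16S+ 1.14%. In D6T-, 86.6% of the X peaks (84.3 to 88.5) were absent from D6T+, whereas on single autosomes the share ran from 58.9% to 66.8%. X-linked genes bound numbered 244 in D6T- and 109 in D6T+, and 179 at D0. Alg13, a glycosylation gene on X, scored 175 in D6T- and 0 at D0 and in D6T+, and Atrx scored 70.7, 13.7 and 0.

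A D6T- only peak 2.2 kb upstream of Pou5f1 (Oct4), at chr17:35640576-35641076, was absent at D0 and held a composite SOX-OCT core. Its normalised tag count was 88.0, but it was 2.07-fold over input and held 120.5 input tags, the highest of all 26180 D6T- peaks of that length, whose median was 4.5. Input tags were high over the Pou5f1 locus in other libraries too, with 311.5 under a D0 peak and 324.2 under a D6T+ peak downstream of the end of the gene. The cells carry an Oct4-GFP allele and the delivered Oct4, whose part in these values was not tested. The sequence around the match is shown with the match in capitals (mm9, plus strand, 5′ to 3′).
Pou5f1 upstream: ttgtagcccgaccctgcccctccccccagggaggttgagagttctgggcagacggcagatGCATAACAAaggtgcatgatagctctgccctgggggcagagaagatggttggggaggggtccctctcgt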
